A study of Mus musculus with 9 samples.

Results

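Solute carriers are the membrane proteins that move amino acids, sugars, metal ions, nucleosides, vitamins and many other small molecules across the plasma membrane and the membranes of organelles. Their messenger RNAs were followed in NIH 3T3 cells, an immortalised line of mouse embryonic fibroblasts, under a control hairpin and under a pair of hairpins against Cnksr2. The genes were taken by symbol alone, as every gene whose name begins with Slc followed by a digit, which gave 160 of the 10340 genes in the table (1.55%). They were grouped by what they carry: 34 mitochondrial carriers (family Slc25), 23 amino acid transporters, 23 metal transporters, 20 transporters of inorganic ions, 20 members of the nucleotide sugar family Slc35, 10 transporters of organic ions, osmolytes and other solutes, 8 of glucose and lactate, 7 of lipids, choline and acetyl-CoA, 6 of vitamins and 4 of nucleosides and nucleobases. The other 5 genes bear an Slc symbol but encode no known transporter.

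All 9 libraries came from 3T3 monolayers grown on plastic that were infected with a lentivirus and selected for it. Group shControl carried a hairpin against red fluorescent protein, which these cells lack, so the controls had also been infected, selected and made to express a hairpin. Groups shCNKSR2_1 and shCNKSR2_2 each carried a different hairpin directed at Cnksr2, whose protein product is a scaffold in Ras signalling. Each group held 3 separate cultures, so n = 3 throughout. Cnksr2 itself was not analysed here, so how far either hairpin lowered it is unknown, and every comparison below is between hairpins, each represented by 1 sequence, in a single cell line.

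Transporters work in sets. The heavy chain Slc3a2 pairs with light chains such as Slc7a5, which then brings in large neutral amino acids, and Slc7a11, which then exchanges cystine for glutamate. Sodium-coupled carriers of family Slc38 bring in glutamine and alanine, and Slc1 carriers bring in glutamate or exchange small neutral amino acids. Glucose enters fibroblasts through Slc2a1 and lactate leaves through proton-coupled monocarboxylate carriers such as Slc16a1. Zinc, iron and manganese enter the cytosol through Slc39 and Slc11 proteins, while Slc30 proteins move zinc out. Most of the Slc25 family sits in the inner mitochondrial membrane and exchanges nucleotides, phosphate, carboxylates and cofactors with the cytosol, although Slc25a17 is peroxisomal and Slc25a46 sits in the outer mitochondrial membrane, and both are counted here by family.

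Values are FPKM, fragment numbers scaled by transcript length and by the mapped fragments of the library, so levels can be compared between genes per unit length. The table gives no fragment counts, so library depth is unknown. The lowest value in the table was just above 1 FPKM in each library, so genes at or under that level were out of reach, and Slc16a3 and Slc40a1 are among the transporters not analysed here. The 160 genes together took 0.793% to 0.816% of each library's FPKM. On the first principal component of these genes, which held 69.8% of their variance, control libraries lay at -1.96, -1.96 and -1.75 and shCNKSR2_2 libraries at 1.5, 1.36 and 1.35. Replicate 1 of shCNKSR2_1 lay at -0.131, nearer to the controls than replicates 2 and 3 at 0.851 and 0.737, and results that rest on it are given without it. Of 12 fibroblast markers 10 were measured, and their sums ran from 6930 to 7190 FPKM in controls, 7770 to 7930 with shCNKSR2_1 and 7170 to 7710 with shCNKSR2_2. Single markers went both ways, 3 higher and 2 lower with shCNKSR2_1, and 3 higher and 6 lower with shCNKSR2_2, where the collagen genes Col1a1 and Col3a1 fell by 0.92 and 0.83. The part of these shifts in the results was not tested. None of 6 epithelial, 6 endothelial or 6 skeletal muscle markers was above the table's limit in all libraries. Of 8 leukocyte markers, Cd68 and Cd14 were listed, with sums of 7.47 to 8.52, 7.94 to 8.97 and 7.96 to 8.30 FPKM, so the sums of the groups overlapped, and Ptprc, which defines the lineage, was not listed.

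The most abundant solute carriers were mitochondrial. Slc25a5, an ADP-ATP translocase, averaged 471 FPKM over all 9 libraries, Slc25a4, another ADP-ATP translocase, 371 FPKM, and the phosphate carrier Slc25a3 336 FPKM. The translocase genes are close copies with processed pseudogenes, so the split of fragments between them is uncertain. Outside the mitochondria the glutamine and alanine carrier Slc38a2 averaged 128 FPKM, the heme transporter Slc48a1 74.8 FPKM, the heavy chain Slc3a2 73.0 FPKM, the glucose transporter Slc2a1 62.4 FPKM and the taurine transporter Slc6a6 61.4 FPKM. The median over all 160 was 9.82 FPKM, against 13.2 FPKM over all genes, and 43 of the 160 averaged under 5 FPKM. Class medians lay between 5.79 FPKM for organic ions and osmolytes and 13.2 FPKM for amino acids, and nucleoside carriers, led by Slc29a1 at 15.4 FPKM, had a median of 7.90 FPKM.

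**Figure D1:**
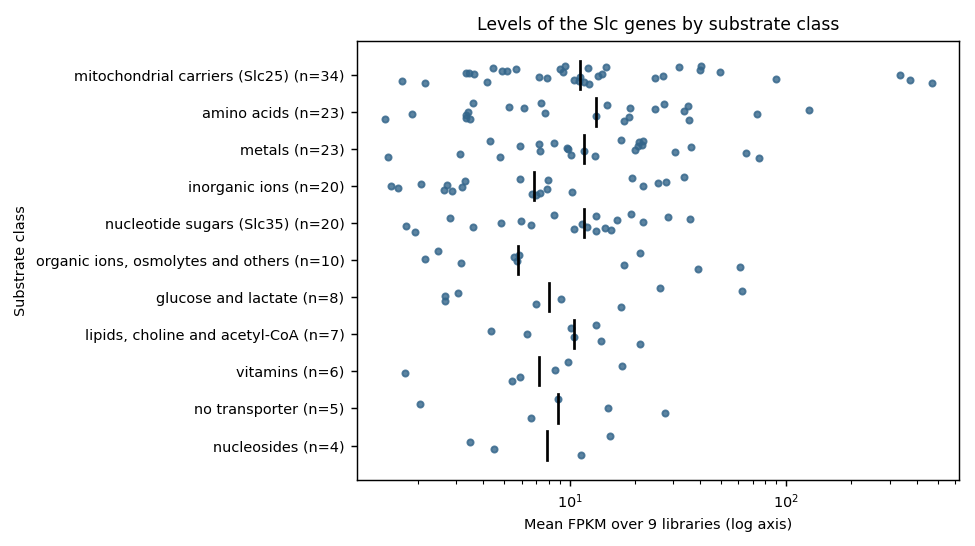
Mean FPKM over the 9 libraries (log axis) of each Slc gene, 1 point a gene, by substrate class, with the class median as a bar. The 3 mitochondrial carriers Slc25a5, Slc25a4 and Slc25a3 stand at 471, 371 and 336 FPKM, to the right of every other member.

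Solute carrier messages changed in both directions, and mostly by little. In bulk RNA, fewer cells that express a gene and less of its RNA per cell cannot be told apart. A gene was called where a linear model on log2(FPKM + 1) in limma gave an adjusted p under 0.05 over all genes. With shCNKSR2_1, 64 of the 160 were called (40.0%, against 32.8% of all genes), 29 higher (18.1%, against 13.6%) and 35 lower (21.9%, against 19.3%). With shCNKSR2_2, 89 were called (55.6%, against 48.2%), 44 higher (27.5%, against 20.0%) and 45 lower (28.1%, against 28.2%). In the direct comparison of shCNKSR2_2 with shCNKSR2_1, 35 were called (21.9%, against 20.5%), 21 higher (against 9.13% of all genes) and 14 lower (against 11.4%). Called the same way with both hairpins, which share their control libraries, were 26 higher (16.2%, against 10.6%) and 27 lower (16.9%, against 15.2%). Slc35a3 alone of the 160 went opposite ways, against 45 of the 10340 genes. The median log2 fold change of the 160 was -0.01 and 0.01, beside -0.02 and -0.03 for all genes. On the scale of FPKM + 1, a call at 1.5-fold or more was reached by 3 with shCNKSR2_1 (1.88%, against 2.23% of all genes). This limit was reached by 5 with shCNKSR2_2 (3.12%, against 4.43%), and the 2-fold limit by Slc12a2 with shCNKSR2_2. The scale understates fold changes in FPKM itself for genes near 1 FPKM, so these counts can miss such genes. The groups did not overlap for 79 of the 160 with shCNKSR2_1 (49.4%, against 44.2% of all genes), for 109 with shCNKSR2_2 (68.1%, against 59.6%) and for 67 between the hairpins (41.9%, against 37.9%).

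The balance of higher and lower calls depended on scaling. With shCNKSR2_1 the split of 29 higher and 35 lower became 38 and 27 under median-ratio rescaling, 36 and 24 under quantile normalization and 41 and 34 with the trend on transcript GC content removed. With shCNKSR2_2 the split of 44 and 45 became 50 and 38, 58 and 34, and 60 and 38 under the same alternatives. The split of all genes moved likewise, with shCNKSR2_1 from 1405 higher and 1991 lower to 1794 and 1564 under median-ratio rescaling. The number higher with shCNKSR2_1 was 42 without its replicate 1, 19 without its replicate 2 and 14 without replicates 2 and 3.

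**Figure D2:**
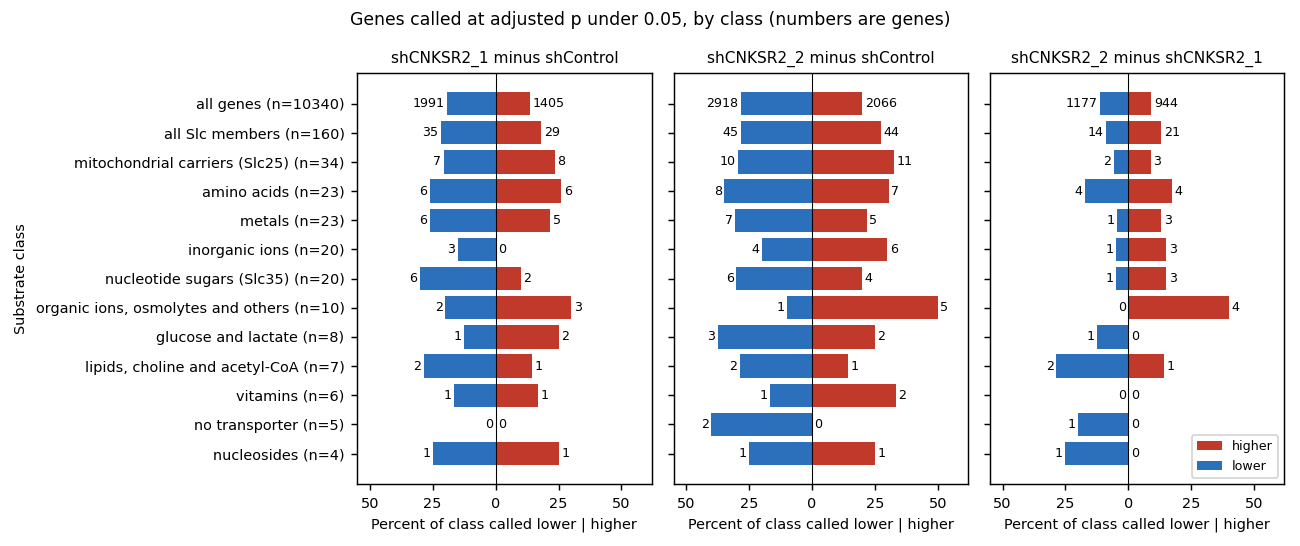
Percent of each substrate class called lower (left) or higher (right) in the 3 comparisons, with the number of genes at each bar and all 10340 genes in the top row. Both directions appear in most classes, and the organic ion and osmolyte class has 5 of 10 higher with shCNKSR2_2.

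Amino acid transporters moved both ways. Of 23, 6 were higher and 6 lower with shCNKSR2_1 (26.1% each, against 13.6% and 19.3% of all genes), and 7 were higher and 8 lower with shCNKSR2_2 (30.4% and 34.8%, against 20.0% and 28.2%). Slc6a9, which takes up glycine with sodium, was at 9.58, 10.3 and 10.7 FPKM in controls, 12.6, 14.0 and 15.1 with shCNKSR2_1 and 16.2, 14.8 and 15.2 with shCNKSR2_2. Every hairpin library was above every control, and the rises were 0.41 and 0.55 on the log2 scale (SE 0.06 for each, adjusted p = 0.000617 and 4.36e-05 by limma). Slc3a2, the heavy chain that escorts light chains to the surface, went from 63.2 ± 1.5 FPKM (SD) to 76.2 ± 4.17 and 79.5 ± 2.96 FPKM, rises of 0.27 and 0.33 (adjusted p = 0.00116 and 0.000153). Its best known light chain Slc7a5, for leucine and other large neutral amino acids, had log2 fold changes of 0.19 and 0.14 and did not pass (adjusted p = 0.0674 and 0.131 by limma).

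The light chain of the cystine-glutamate exchanger, Slc7a11, was at 2.53, 2.35 and 2.53 FPKM in controls, 2.59, 3.83 and 3.37 with shCNKSR2_1 and 4.2, 4.14 and 4.22 with shCNKSR2_2. Replicate 1 of shCNKSR2_1 was just above the highest control, while the shCNKSR2_2 libraries stood clear of them. Slc7a11 rose with shCNKSR2_2 by 0.58 (SE 0.09, adjusted p = 0.000292 by limma). Its rise of 0.29 with shCNKSR2_1 (adjusted p = 0.0266) was 0.41 without replicate 1 and 0.05 (adjusted p = 0.604) without replicates 2 and 3. That call was lost without any 1 control library or without replicate 2 or 3 of shCNKSR2_1 (adjusted p from 0.0519 to 0.0868). Slc1a4, an exchanger of alanine, serine and cysteine, went from 13.1 ± 0.532 FPKM to 16.3 ± 0.254 and 15.4 ± 0.481 FPKM. Its rises of 0.29 and 0.21 (adjusted p = 0.000303 and 0.00118) kept their calls without any 1 library.

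The promoters of Slc7a11 and Slc1a4 are shown because they hold the letters TGATGNAA. This is the core of the element that ATF4, the transcription factor of amino acid shortage, and its C/EBP partners bind. They were 2 of the 21 matched members called higher with both hairpins, and 0 of the 19 called lower with both hold it. The 19 include the glutamine and alanine carrier Slc38a2, and sites outside the windows described below were not searched. Outside the Slc symbols, 11 of 21 genes of amino acid handling were higher with shCNKSR2_1 and 12 with shCNKSR2_2. Among the others, Chac1 (0.05 and 0.10) and Trib3 (-0.06 and -0.00) had no call, and Sesn2 fell (-0.14 and -0.17). Atf4 itself rose with shCNKSR2_1 by 0.16 (adjusted p = 0.00505 by limma) and did not pass with shCNKSR2_2 (0.05, adjusted p = 0.292). The part of ATF4 was not tested. The windows run from 250 bases before the start of the transcript to 50 after it, on the coding strand, from RefSeq (build GRCm38.p6, which differs from the submitters' build mm9). Capitals mark matches on either strand. In Slc7a11 (chr3:50443564-50443863, minus strand) a match on each strand begins at -66 and -47 from the start, and in Slc1a4 (chr11:20332664-20332963, minus strand) 1 match begins at -4. No match overlapped one of the other motifs searched.
Slc7a11: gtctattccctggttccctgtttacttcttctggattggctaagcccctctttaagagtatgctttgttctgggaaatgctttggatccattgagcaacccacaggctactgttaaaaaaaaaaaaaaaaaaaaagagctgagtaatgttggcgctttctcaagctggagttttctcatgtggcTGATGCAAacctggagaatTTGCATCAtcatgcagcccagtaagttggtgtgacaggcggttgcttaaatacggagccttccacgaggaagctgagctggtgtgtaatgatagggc
Slc1a4: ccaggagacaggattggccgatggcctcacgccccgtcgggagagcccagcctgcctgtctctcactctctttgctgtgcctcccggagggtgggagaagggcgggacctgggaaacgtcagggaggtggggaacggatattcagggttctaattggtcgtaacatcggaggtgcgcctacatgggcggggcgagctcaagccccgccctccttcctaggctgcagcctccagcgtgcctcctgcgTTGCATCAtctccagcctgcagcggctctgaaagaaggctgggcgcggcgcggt
Of 27025 genes with such a window, expressed here or not, 4.51% hold this motif, as do 3 of the 121 Slc genes with a window.

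The sodium-coupled neutral carriers of family Slc38 had 0 of 6 members higher, with 3 lower with shCNKSR2_1 and 4 lower with shCNKSR2_2. Over all genes 13.6% were higher and 19.3% lower with shCNKSR2_1, and 20.0% and 28.2% with shCNKSR2_2. Slc38a2, the most abundant amino acid carrier of these cells, was at 154, 151 and 149 FPKM in controls, 138, 119 and 118 with shCNKSR2_1 and 103, 109 and 111 with shCNKSR2_2. The 3 groups did not overlap, and it fell by 0.28 and 0.49 (SE 0.05, adjusted p = 0.00311 and 4.36e-05 by limma). Without replicates 2 and 3 of shCNKSR2_1 the first change of Slc38a2 was -0.14 (adjusted p = 0.0842). Slc38a4, which also carries cationic amino acids, was at 41.0, 40.5 and 38.5 FPKM in controls, 36.8, 34.4 and 34.8 with shCNKSR2_1 and 26.1, 26.2 and 26.8 with shCNKSR2_2. It fell by 0.17 (adjusted p = 0.00530) and by 0.58 (adjusted p = 9.19e-07), and the first change was -0.12 (adjusted p = 0.129) without replicates 2 and 3 of that hairpin.

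Among carriers of arginine and lysine the members went different ways. Slc7a2 was at 4.56, 4.83 and 4.44 FPKM in controls, 2.64, 2.98 and 2.93 with shCNKSR2_1 and 2.89, 3.01 and 3.02 with shCNKSR2_2, so all 6 hairpin libraries lay under all controls. It fell by 0.54 and 0.50 (SE 0.05, adjusted p = 1.68e-05 and 1.61e-05 by limma). Slc7a1, the widely expressed carrier of the same substrates, went from 17.2 ± 0.410 FPKM to 19.7 ± 1.84 and 19.5 ± 0.786 FPKM, log2 fold changes of 0.18 and 0.17. Both calls of Slc7a1 (adjusted p = 0.0370 and 0.0361) were lost without any 1 control library (adjusted p up to 0.111 and 0.107) or with a replicate block (adjusted p = 0.0530 and 0.0508). The first was also lost without replicate 2 or 3 of either hairpin (adjusted p up to 0.125), the second without any 1 shCNKSR2_2 library, and without replicates 2 and 3 of shCNKSR2_1 the first change was 0.03. The glutamine exchanger Slc1a5 stood at 35.1 ± 1.99, 36.5 ± 2.14 and 34.4 ± 0.549 FPKM and did not pass (adjusted p = 0.442 and 0.660).

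Of the 8 transporters of glucose, related sugars and lactate, 2 were higher and 1 lower with shCNKSR2_1 (against 13.6% and 19.3% of all genes). These numbers were 2 and 3 with shCNKSR2_2 (against 20.0% and 28.2%). Slc2a1, the basal glucose transporter of fibroblasts, was at 53.6, 55.0 and 56.8 FPKM in controls, 63.5, 69.3 and 72.5 with shCNKSR2_1 and 68.0, 62.2 and 60.9 with shCNKSR2_2. Every hairpin library of Slc2a1 was above every control, with rises of 0.31 and 0.20 (SE 0.05, adjusted p = 0.00156 and 0.00961 by limma), and 0.20 (adjusted p = 0.0537) with replicate 1 of shCNKSR2_1 as that group's only library. Slc45a4, of the sugar transporter family Slc45, rose by 0.24 and 0.20 (adjusted p = 0.00330 and 0.00651), and its first change was 0.14 (adjusted p = 0.104) without replicates 2 and 3 of shCNKSR2_1.

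Of the monocarboxylate carrier family Slc16, the glucose and lactate class holds Slc16a1 alone, and Slc16a13 is given below with organic ions and osmolytes. The lactate carrier Slc16a1 was at 28.7, 27.4 and 26.8 FPKM in controls, 25.6, 26.1 and 25.3 with shCNKSR2_1 and 24.5, 25.7 and 25.2 with shCNKSR2_2. Both hairpin groups lay under the controls and overlapped each other, and the changes were small, at -0.10 and -0.13 (adjusted p = 0.0489 and 0.0118 by limma). The first call of Slc16a1 was lost without any 1 library other than shControl replicate 3 (adjusted p from 0.0518 to 0.182), under both rescalings (adjusted p = 0.143 and 0.0773) and with a replicate block (adjusted p = 0.0734), and the second was lost without shControl replicate 1 (adjusted p = 0.0566). Slc2a8, an intracellular hexose transporter, fell with shCNKSR2_2 by 0.23 (adjusted p = 0.00992), from 2.96 ± 0.305 to 2.37 ± 0.0851 FPKM, and had a log2 fold change of -0.11 with shCNKSR2_1 (adjusted p = 0.208). Slc50a1, a sugar efflux protein, stood at 18.6 ± 0.540, 17.9 ± 2.57 and 15.2 ± 1.12 FPKM. Its fall of 0.28 with shCNKSR2_2 (adjusted p = 0.0182) was lost without shControl replicate 2 or shCNKSR2_2 replicate 3 (adjusted p = 0.0604 and 0.0753).

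Named members among the 23 metal transporters went both ways: the importers Slc11a2, Slc39a14 and Slc39a8 fell while the magnesium transporter Slc41a1, the heme transporter Slc48a1 and the zinc exporter Slc30a1 rose. These members do not stand for their families. Of 6 members of the efflux family Slc30, 1 was higher and 0 lower with shCNKSR2_1 (against 13.6% and 19.3% of all genes). These numbers were 2 and 1 with shCNKSR2_2 (against 20.0% and 28.2%). The median log2 fold changes of the 6 were 0.05 and 0.02. With shCNKSR2_1, 5 were higher and 6 lower (21.7% and 26.1%, against 13.6% and 19.3% of all genes), and with shCNKSR2_2, 5 and 7 (21.7% and 30.4%, against 20.0% and 28.2%), so the shares with the second hairpin were near those of all genes. The number higher with shCNKSR2_1 was 3 without shControl replicate 3 or without shCNKSR2_1 replicate 2. Slc11a2 (DMT1), which brings ferrous iron and manganese into the cytosol, was at 21.9, 22.8 and 23.3 FPKM in controls, 13.2, 13.6 and 14.4 with shCNKSR2_1 and 15.4, 15.0 and 15.4 with shCNKSR2_2. The hairpin groups lay well under the controls and did not overlap each other, and the falls of Slc11a2 were 0.69 and 0.54 (SE 0.04, adjusted p = 6.53e-07 and 1.93e-06 by limma).

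Of 10 members of family Slc39, importers of zinc, iron and manganese, 1 was higher and 4 were lower with either hairpin. Over all genes 13.6% and 20.0% were higher and 19.3% and 28.2% lower. The median log2 fold changes of the 10 were small, at -0.06 and -0.02. Slc39a14 was at 13.9, 13.9 and 14.0 FPKM in controls, 9.68, 11.2 and 11 with shCNKSR2_1 and 10.1, 10.7 and 10.9 with shCNKSR2_2, falls of 0.36 and 0.37 (SE 0.05, adjusted p = 0.000420 and 0.000188). Slc39a8, its close relative, was at 4.16, 3.86 and 3.77 FPKM in controls, 3.13, 2.77 and 2.92 with shCNKSR2_1 and 2.46, 2.52 and 2.35 with shCNKSR2_2. The 3 groups of Slc39a8 did not overlap, and it fell by 0.32 and 0.52 (SE 0.05, adjusted p = 0.000743 and 1.58e-05 by limma). Slc31a2, which promotes copper release from endosomes, went from 7.09 ± 0.320 FPKM to 5.34 ± 0.186 and 5.29 ± 0.372 FPKM, falls of 0.35 and 0.37 (adjusted p = 0.000503 and 0.000199).

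Slc41a1, a magnesium transporter of the plasma membrane, was at 9.28, 9.57 and 10 FPKM in controls, 12.7, 15.8 and 15.1 with shCNKSR2_1 and 15.8, 15.5 and 14.1 with shCNKSR2_2. All hairpin libraries were above all controls, and Slc41a1 rose by 0.54 and 0.60 (SE 0.07, adjusted p = 0.000245 and 5.76e-05 by limma), with 0.63 for the first without replicate 1 and 0.37 without replicates 2 and 3. Slc48a1, which moves heme out of endosomes and lysosomes, went from 64.4 ± 1.51 FPKM to 78.4 ± 3.35 and 81.6 ± 4.26 FPKM, rises of 0.28 and 0.34 (adjusted p = 0.000883 and 0.000137). Slc30a1, the zinc exporter of the plasma membrane, was at 3.81, 3.71 and 3.72 FPKM in controls, 4.38, 4.98 and 4.82 with shCNKSR2_1 and 4.41, 4.27 and 4.42 with shCNKSR2_2. Its groups of hairpin libraries stood above the controls, with rises of 0.27 and 0.18 (SE 0.05, adjusted p = 0.00137 and 0.00917 by limma).

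Slc30a1 is a textbook target of the zinc-sensing factor MTF1, so its window is shown with the metal response element core TGCNCNC in capitals (chr1:191906531-191906830, plus strand, GRCm38.p6, RefSeq). Outside the Slc symbols, the metallothionein gene Mt2 fell by 0.38 and 0.49 (adjusted p = 0.00123 and 0.000123 by limma). Mt1 (0.00 and -0.07) and Mtf1 itself (-0.03 and 0.11) had no call against controls. The part of MTF1 was not tested. Matches in the Slc30a1 window begin at -43 and 31 from the start, both on the opposite strand, and overlap none of the other motifs.
Slc30a1: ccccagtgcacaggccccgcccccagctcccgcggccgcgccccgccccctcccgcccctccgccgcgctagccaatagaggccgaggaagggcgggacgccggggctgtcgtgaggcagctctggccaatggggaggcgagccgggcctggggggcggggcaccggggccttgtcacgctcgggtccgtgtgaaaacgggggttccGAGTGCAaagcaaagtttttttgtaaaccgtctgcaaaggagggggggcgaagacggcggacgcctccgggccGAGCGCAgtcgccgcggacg
The motif is short and common, being present in 53.6% of 27025 genes with a window, expressed here or not, and in 81 of the 121 Slc genes with a window.

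Of the 4 carriers of nucleosides and nucleobases, 1 was higher and 1 lower with each hairpin. Among all genes 13.6% were higher and 19.3% lower with shCNKSR2_1, and 20.0% and 28.2% with shCNKSR2_2. Slc29a1, the main equilibrative nucleoside transporter, stood at 14.9 ± 0.528, 16.6 ± 1.55 and 14.6 ± 0.469 FPKM and did not pass with either hairpin (adjusted p = 0.0863 and 0.709 by limma). Slc29a2, its relative, was at 2.90, 2.75 and 2.96 FPKM in controls, 3.19, 3.89 and 3.67 with shCNKSR2_1 and 4.26, 4.11 and 3.63 with shCNKSR2_2. All hairpin libraries of Slc29a2 were above all controls, and it rose with shCNKSR2_2 by 0.37 (SE 0.07, adjusted p = 0.000927). Its rise of 0.24 with shCNKSR2_1 (adjusted p = 0.0162) was lost without shControl replicate 2 or shCNKSR2_1 replicate 2 or 3 (adjusted p from 0.0508 to 0.0615), and without both of those hairpin replicates it was 0.12 (adjusted p = 0.338). The nucleobase transporter Slc43a3 went from 12.8 ± 0.478 FPKM to 11.4 ± 0.960 and 9.76 ± 0.225 FPKM, falling with shCNKSR2_2 by 0.35 (adjusted p = 0.000372) and not passing with shCNKSR2_1 (-0.15, adjusted p = 0.0548). The lysosomal carrier Slc29a3 had changes of -0.11 and -0.07 (adjusted p = 0.0399 and 0.166), and the first was lost without any 1 library other than shCNKSR2_1 replicate 1 (adjusted p from 0.0523 to 0.117) and with a replicate block (adjusted p = 0.0694).

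Of 34 mitochondrial carriers, 8 were higher and 7 lower with shCNKSR2_1, and 11 were higher and 10 lower with shCNKSR2_2 (23.5%, 20.6%, 32.4% and 29.4%, against 13.6%, 19.3%, 20.0% and 28.2% of all genes). The count of 8 was 5 without shControl replicate 1 or 2 or without shCNKSR2_1 replicate 2 or 3, 11 without shCNKSR2_1 replicate 1 and 4 without replicates 2 and 3. Both ADP-ATP translocases of high level were without a call. Slc25a5 stood at 468 ± 3.60, 487 ± 18.5 and 458 ± 0.930 FPKM and Slc25a4 at 362 ± 20.8, 377 ± 15.7 and 374 ± 5.59 FPKM, and neither passed with either hairpin (adjusted p from 0.223 to 0.488 by limma). Slc25a3, the phosphate carrier, was at 312, 304 and 313 FPKM in controls, 320, 343 and 355 with shCNKSR2_1 and 361, 363 and 357 with shCNKSR2_2. The hairpin libraries of Slc25a3 were all above the controls, and it rose with shCNKSR2_2 by 0.22 (SE 0.04, adjusted p = 0.00103 by limma). The rise of 0.13 with shCNKSR2_1 (adjusted p = 0.0268) was lost without shControl replicate 1 or 2, without shCNKSR2_1 replicate 2 or 3 (adjusted p from 0.0657 to 0.0973) and without both of the latter (0.05).

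Slc25a30, a kidney-type relative of the uncoupling proteins, was at 20.5, 19.6 and 19.3 FPKM in controls, 30.1, 29.3 and 28.1 with shCNKSR2_1 and 31.2, 32.9 and 31.5 with shCNKSR2_2. The 3 groups did not overlap, and with both hairpins it rose further than any other carrier of the family, by 0.53 and 0.66 (SE 0.04, adjusted p = 3.67e-06 and 4.93e-07 by limma). Slc25a33, a pyrimidine nucleotide carrier, was at 5.81, 5.79 and 6.0 FPKM in controls, 6.28, 7.94 and 7.85 with shCNKSR2_1 and 8.13, 8.73 and 8.47 with shCNKSR2_2. It rose by 0.28 and 0.46 (SE 0.07, adjusted p = 0.0110 and 0.000323), and the first change was 0.37 without shCNKSR2_1 replicate 1 and 0.09 (adjusted p = 0.321) without replicates 2 and 3. The dicarboxylate carrier Slc25a10, which exchanges succinate or malate for phosphate, rose with shCNKSR2_2 by 0.32 (adjusted p = 0.00369). Its change of 0.22 with shCNKSR2_1 (adjusted p = 0.0370) was lost without shControl replicate 1 or 2, shCNKSR2_1 replicate 2 or 3 or shCNKSR2_2 replicate 2 (adjusted p from 0.0526 to 0.125), and was 0.07 without replicates 2 and 3 of shCNKSR2_1.

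Of 8 carriers of cofactors such as coenzyme A, thiamine pyrophosphate and folate, 4 were lower and 1 higher with shCNKSR2_1, and 5 were lower and 1 higher with shCNKSR2_2. Over all genes 19.3% and 28.2% were lower and 13.6% and 20.0% higher. Slc25a39, which brings glutathione into mitochondria, was at 99.7, 97.0 and 109 FPKM in controls, 83.7, 82.0 and 93.7 with shCNKSR2_1 and 87.7, 78.4 and 78.6 with shCNKSR2_2. All hairpin libraries of Slc25a39 were under all controls, and it fell by 0.23 and 0.32 (SE 0.06, adjusted p = 0.0157 and 0.00186 by limma), the first call being lost without shControl replicate 3 or shCNKSR2_1 replicate 2 (adjusted p = 0.0583 and 0.0589).

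Inorganic ion transporters held the largest change of the 160. Slc12a2 (NKCC1), the sodium-potassium-chloride cotransporter that loads cells with chloride and restores their volume, was at 50.4, 50.5 and 47.6 FPKM in controls, 30.5, 27.7 and 25.3 with shCNKSR2_1 and 22.9, 24.4 and 24.8 with shCNKSR2_2. The 3 groups did not overlap, and the falls were 0.81 and 1.01 (SE 0.06, adjusted p = 3.56e-06 and 4.50e-07 by limma). Slc4a4, a sodium bicarbonate cotransporter, was at 2.14, 2.28 and 2.17 FPKM in controls, 1.22, 1.21 and 1.17 with shCNKSR2_1 and 1.49, 1.42 and 1.46 with shCNKSR2_2. It fell by 0.54 and 0.38 (SE 0.04, adjusted p = 8.73e-06 and 5.88e-05), values that understate the ratio this near to 1 FPKM. With shCNKSR2_1, 0 of the 20 were higher and 3 lower (15.0% lower, against 13.6% higher and 19.3% lower over all genes). But 3 were higher without its replicate 1 and 2 without shControl replicate 3. With shCNKSR2_2, 6 were higher and 4 lower (30.0% and 20.0%, against 20.0% and 28.2%). The phosphate transporter Slc20a2 rose with this hairpin by 0.28 (adjusted p = 0.00221 by limma). Its relative Slc20a1, at 28.0 ± 0.296 FPKM in controls and 28.9 ± 0.383 with this hairpin, did not pass (adjusted p = 0.559).

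Several members of the class of organic ions, osmolytes and other solutes rose. Of its 3 carriers of osmolytes and creatine, 1 was higher with shCNKSR2_1 and 2 with shCNKSR2_2 (against 13.6% and 20.0% of all genes). Slc16a13, a monocarboxylate carrier family member, was counted in this class and not with glucose and lactate. It was at 13.4, 14.7 and 15.2 FPKM in controls, 23.3, 23.5 and 23.8 with shCNKSR2_1 and 26.1, 25.7 and 25.3 with shCNKSR2_2. The 3 groups did not overlap, and this rise, of 0.67 and 0.79 (SE 0.04, adjusted p = 1.47e-06 and 3.09e-07 by limma), was the largest of the 160 with either hairpin. Slc5a3, the sodium-coupled importer of the osmolyte myo-inositol, was at 13.9, 14.1 and 13.1 FPKM in controls, 15.1, 20.6 and 19.0 with shCNKSR2_1 and 21.4, 21.9 and 22.5 with shCNKSR2_2. Slc5a3 rose by 0.38 and 0.64 (SE 0.08, adjusted p = 0.00601 and 0.000124), and the first change was 0.50 without shCNKSR2_1 replicate 1 and 0.14 (adjusted p = 0.113) without replicates 2 and 3. Slc14a1, a urea transporter, went from 1.76 ± 0.0676 FPKM to 2.67 ± 0.199 and 2.96 ± 0.228 FPKM, rises of 0.41 and 0.52 (adjusted p = 0.000380 and 3.65e-05). The creatine transporter Slc6a8 rose with shCNKSR2_2 by 0.44 (adjusted p = 0.000210), from 34.0 ± 1.89 to 46.4 ± 1.54 FPKM, and not with shCNKSR2_1 (0.14, adjusted p = 0.117). Slc6a6, which takes up the osmolyte taurine, stood at 62.2 ± 1.63, 61.6 ± 2.48 and 60.5 ± 1.72 FPKM and did not pass (adjusted p = 0.817 and 0.426). In all, 3 of these 10 were higher and 2 lower with shCNKSR2_1 (against 13.6% and 19.3% of all genes). These numbers were 5 and 1 with shCNKSR2_2 (against 20.0% and 28.2%). The 2 lower with shCNKSR2_1 became 1 without any 1 library other than shControl replicate 3 or shCNKSR2_1 replicate 2.

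**Figure D3:**
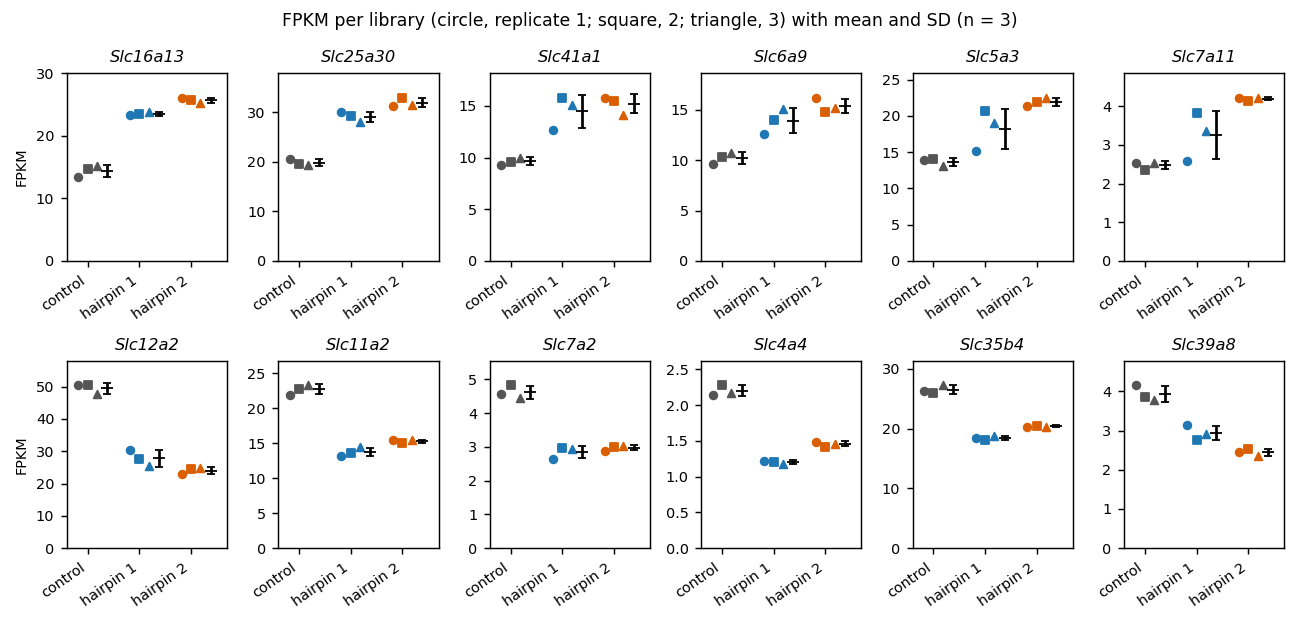
FPKM in each library of 12 members, the top row risers and the bottom row fallers, with control, hairpin 1 (shCNKSR2_1) and hairpin 2 (shCNKSR2_2) side by side, 1 marker a replicate, and the mean and SD of the 3 as a bar. Slc16a13, Slc25a30 and Slc12a2 show 3 separate groups, while replicate 1 (circle) of shCNKSR2_1 is at 2.59 FPKM for Slc7a11, beside controls of 2.35 to 2.53.

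The Slc35 family supplies the endoplasmic reticulum and Golgi with nucleotide sugars and related donors. Of its 20 members, 2 were higher and 6 lower with shCNKSR2_1 (against 13.6% and 19.3% of all genes). These numbers were 4 and 6 with shCNKSR2_2 (against 20.0% and 28.2%), so the shares with this hairpin were near those of all genes. Both counts of 6 were 3 without some 1 library, shControl replicate 1 or shCNKSR2_2 replicate 3 for the first and shControl replicate 3 or shCNKSR2_2 replicate 3 for the second, and the count of 2 was 0 without shControl replicate 1 or shCNKSR2_1 replicate 2 or 3 and 1 without any of the others except shCNKSR2_1 replicate 1. Slc35b4, a transporter of UDP-xylose and UDP-N-acetylglucosamine, was at 26.3, 25.9 and 27.3 FPKM in controls, 18.4, 18.1 and 18.7 with shCNKSR2_1 and 20.2, 20.5 and 20.3 with shCNKSR2_2. Its 3 groups did not overlap, and it fell by 0.50 and 0.36 (SE 0.03, adjusted p = 1.81e-06 and 9.97e-06 by limma). Slc35b1, the most abundant of the family at 36.1 FPKM, fell with shCNKSR2_2 by 0.17 (adjusted p = 0.0122). Slc35b2, which brings the sulfate donor PAPS into the Golgi, fell with shCNKSR2_2 by 0.27 (adjusted p = 0.000977) and stood at -0.15 with shCNKSR2_1. That value had an adjusted p of 0.0371, lost without shControl replicate 1 or 3, shCNKSR2_1 replicate 1 or 2 or shCNKSR2_2 replicate 2 or 3 (adjusted p up to 0.119). Slc35e4, which has no assigned substrate, and Slc35d1, a carrier of UDP-glucuronic acid, rose with shCNKSR2_2, by 0.46 and 0.40 (adjusted p = 0.000635 and 0.00102). With shCNKSR2_1 their changes were 0.26 and 0.22, and 0.08 and 0.06 with replicate 1 as its only library.

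Both measured choline transporters fell. Slc44a2 was at 25.9, 24.2 and 25.6 FPKM in controls, 22.4, 20.0 and 20.3 with shCNKSR2_1 and 18.3, 17.1 and 17.3 with shCNKSR2_2, and its 3 groups did not overlap. It fell by 0.26 and 0.50 (SE 0.05, adjusted p = 0.00223 and 1.57e-05 by limma), and its relative Slc44a1 fell by 0.22 and 0.38 (adjusted p = 0.00232 and 2.94e-05). With replicate 1 as the only shCNKSR2_1 library the first changes were -0.16 and -0.13 (adjusted p = 0.0761 and 0.0687). Slc10a7, of the bile acid carrier family, rose by 0.23 with each hairpin (adjusted p = 0.00172 and 0.000981). Of the 6 vitamin transporters, the thiamine transporter Slc19a2 rose by 0.20 and 0.31 (adjusted p = 0.0106 and 0.000386), with 0.08 (adjusted p = 0.293) for the first without shCNKSR2_1 replicates 2 and 3. The ascorbate transporter Slc23a2 fell with shCNKSR2_1 by 0.18 (adjusted p = 0.00429), and its change of -0.11 with shCNKSR2_2 (adjusted p = 0.0383) was lost without any 1 control or shCNKSR2_2 library (adjusted p from 0.0643 to 0.104) or with a replicate block (adjusted p = 0.0674). Slc5a6, which takes up biotin and pantothenate, had a change of 0.17 with shCNKSR2_2 (adjusted p = 0.0226) that was lost without shControl replicate 1 or 2 or shCNKSR2_2 replicate 1 or 2 (adjusted p from 0.0563 to 0.0777). Among the 5 Slc symbols that name no transporter, the scaffold gene Slc9a3r1 (NHERF1), which anchors transporters under the membrane, was at 6.95, 7.21 and 7.86 FPKM in controls, 8.04, 6.83 and 7.02 with shCNKSR2_1 and 5.23, 5.12 and 5.26 with shCNKSR2_2. It fell with the second hairpin by 0.43 (SE 0.06, adjusted p = 0.000171), and its groups overlapped with the first (-0.01, adjusted p = 0.921). Slc7a6os, the most abundant of the 5 at 27.7 FPKM, did not pass with either hairpin (adjusted p = 0.985 and 0.913).

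**Figure D4:**
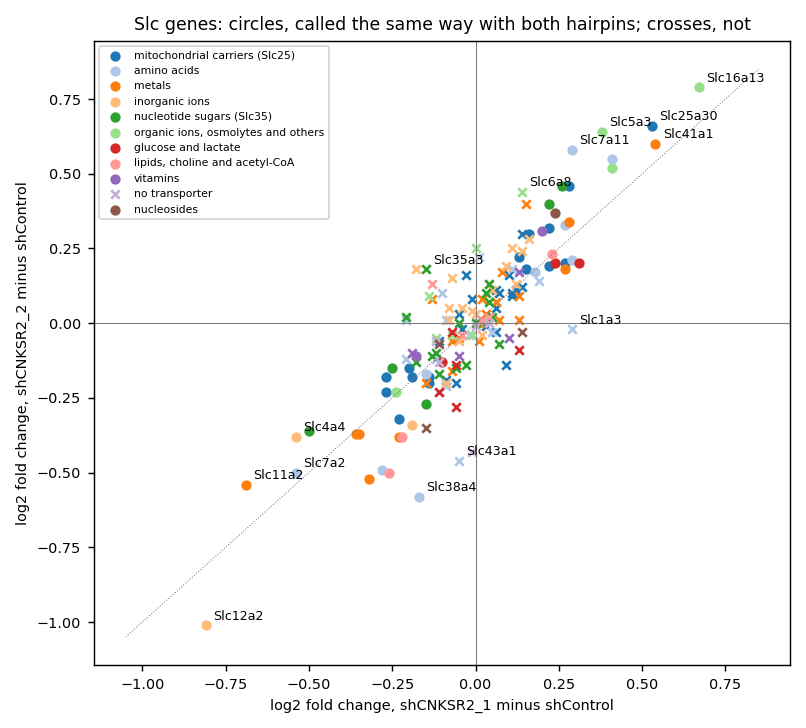
Log2 fold change of each of the 160 genes with shCNKSR2_1 (x axis) and shCNKSR2_2 (y axis) against the same controls, coloured by class, with circles for the 53 called the same way with both and crosses for the rest. Slc12a2 lies lowest at -0.81 and -1.01, Slc16a13 highest at 0.67 and 0.79, and Slc35a3 is in the upper left at -0.15 and 0.18.

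Setting the second hairpin directly against the first showed where they differed. No member was called at 1.5-fold or more on the scale of FPKM + 1, against 116 of the 10340 genes (1.12%). That scale understates fold changes in FPKM itself near 1 FPKM, as for Slc43a1 below. Slc9a3r1 was lower with shCNKSR2_2 by 0.42 (SE 0.06, adjusted p = 0.00101 by limma), Slc38a4 by 0.41 (SE 0.04, adjusted p = 0.000130) and Slc43a1, an exporter of large neutral amino acids, also by 0.41 (SE 0.05, adjusted p = 0.000590). Slc43a1 was at 2.21, 2.35 and 2.10 FPKM in controls, 2.14, 1.98 and 2.18 with shCNKSR2_1 and 1.26, 1.40 and 1.34 with shCNKSR2_2, where 1 FPKM is the limit of the table. The glutamate transporter Slc1a3 was at 26.6, 24.1 and 25.5 FPKM in controls, 34.1, 28.8 and 31.0 with shCNKSR2_1 and 24.2, 24.2 and 26.5 with shCNKSR2_2. It rose with the first hairpin by 0.29 (SE 0.06, adjusted p = 0.00467), overlapped with controls in the second (-0.02, adjusted p = 0.772), and differed between them by -0.31 (adjusted p = 0.00553). Slc44a2 was lower with shCNKSR2_2 by 0.24 (adjusted p = 0.00663).

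Higher with shCNKSR2_2 than with shCNKSR2_1 were Slc8b1, the mitochondrial sodium-calcium exchanger, by 0.36 (SE 0.08, adjusted p = 0.0116 by limma), Slc35a3, a UDP-N-acetylglucosamine transporter, by 0.33 (SE 0.05, adjusted p = 0.00112) and Slc6a8 by 0.30 (SE 0.06, adjusted p = 0.00711). Slc8b1 did not pass against controls with either hairpin (-0.18 and 0.18, adjusted p = 0.111 and 0.0958). The differences of Slc7a11 (0.29, adjusted p = 0.0354) and Slc5a3 (0.26, adjusted p = 0.0490) were each lost without several single libraries, shCNKSR2_1 replicate 1 among them, with adjusted p from 0.0510 to 0.0975 for the 6 libraries of Slc7a11 and from 0.0595 to 0.139 for the 8 of Slc5a3. For Slc7a11 these were shControl replicate 1, shCNKSR2_1 replicates 1 and 3 and all 3 of shCNKSR2_2, and for Slc5a3 all except shCNKSR2_1 replicate 2. Over the 160, the counts of 21 higher and 14 lower became 13, 11 and 12 higher without shCNKSR2_2 replicate 1, 2 or 3, and 7 and 8 lower without replicate 2 or 3.

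Promoter windows were matched for 121 of the 160 genes, and 4 motifs were searched on both strands in these and in 32851 windows of all genes. The core of the antioxidant response element bound by NRF2, TGACNNNGC, was in the windows of 30 of the 121, against 14.0% of the 27025. It was held by 8 of the 21 matched genes called higher with both hairpins and by 8 of the 19 called lower with both. An example from each direction is shown, Slc25a33 (chr4:149774218-149774517, minus strand) among the risers and Slc39a8 (chr3:135825029-135825328, plus strand) among the fallers, with the match in capitals, beginning at -32 and -35 from the start and overlapping none of the other motifs (GRCm38.p6, RefSeq).
Slc25a33: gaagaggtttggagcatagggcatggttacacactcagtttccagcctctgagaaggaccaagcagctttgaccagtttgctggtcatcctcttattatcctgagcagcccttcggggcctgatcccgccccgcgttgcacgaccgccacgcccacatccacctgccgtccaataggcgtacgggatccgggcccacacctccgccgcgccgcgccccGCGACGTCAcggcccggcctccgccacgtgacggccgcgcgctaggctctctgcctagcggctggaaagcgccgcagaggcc
Slc39a8: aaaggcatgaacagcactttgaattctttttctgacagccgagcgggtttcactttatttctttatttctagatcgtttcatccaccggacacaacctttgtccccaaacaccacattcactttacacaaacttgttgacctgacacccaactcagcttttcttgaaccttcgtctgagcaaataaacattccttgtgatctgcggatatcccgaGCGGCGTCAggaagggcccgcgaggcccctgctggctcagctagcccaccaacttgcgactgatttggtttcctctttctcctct
The metal response core TGCNCNC was in 14 of the 21 risers' and 16 of the 19 fallers' windows. The E-box CACGTG was in 2 and 3, and in 20 of the 81 other matched members. That made 25 of the 121 (20.7%), against 8.09% of the 27025. The 27025 include genes not expressed here, so they are not a like background for the 121. The antioxidant core (24.8%, against 14.0%) and the metal core (66.9%, against 53.6%) were also more frequent in the 121. A match is a run of letters, not a measured binding site.

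Genes that work beside these transporters were counted from lists outside the Slc symbols. Of 21 measured genes of amino acid and glutathione metabolism, 11 were higher and 1 lower with shCNKSR2_1 (52.4% and 4.76%, against 13.6% and 19.3% of all genes). With shCNKSR2_2, 12 were higher and 2 lower (57.1% and 9.52%, against 20.0% and 28.2%). Their median log2 fold changes were 0.16 and 0.18, beside -0.02 and -0.03 for all genes. Gss, which completes glutathione, was at 12.6, 13.3 and 13.3 FPKM in controls, 18.4, 18.7 and 19.2 with shCNKSR2_1 and 18.7, 18.6 and 18.8 with shCNKSR2_2, and it rose by 0.49 with each (adjusted p = 3.08e-06 and 1.86e-06 by limma). Got1, the cytosolic aspartate aminotransferase, rose by 0.39 and 0.51 (adjusted p = 0.000159 and 1.10e-05). Of 18 measured genes of metal handling, 3 were higher and 7 lower with shCNKSR2_1 (16.7% and 38.9%, against 13.6% and 19.3% of all genes). With shCNKSR2_2 these were 3 and 8 (16.7% and 44.4%, against 20.0% and 28.2%). The first count of 3 was 1 without shControl replicate 1 or 2 or shCNKSR2_1 replicate 2 or 3, and the second was 6 without shCNKSR2_1 replicate 1. The metalloreductases Steap1 and Steap2, which reduce iron and copper for uptake, fell by 0.70 and 1.01 and by 0.62 and 0.82 (adjusted p = 1.74e-06 and 7.96e-08 for Steap1, 8.25e-06 and 5.99e-07 for Steap2). Hmox1, which breaks down heme and frees its iron, went the other way, at 84.5, 90.0 and 88.7 FPKM in controls, 114, 175 and 164 with shCNKSR2_1 and 154, 145 and 144 with shCNKSR2_2. All its hairpin libraries were above all controls, and Hmox1 rose by 0.75 with each (adjusted p = 0.000964 and 0.000533), with 0.37 for the first without shCNKSR2_1 replicates 2 and 3.

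Of 14 genes of glucose and lactate handling, 4 were higher and 2 lower with shCNKSR2_1 (28.6% and 14.3%, against 13.6% and 19.3% of all genes). With shCNKSR2_2, 3 were higher and 6 lower (21.4% and 42.9%, against 20.0% and 28.2%). Pdk1, which holds back pyruvate dehydrogenase, fell by 0.32 and 0.80 (adjusted p = 0.00545 and 7.07e-06 by limma), with -0.16 (adjusted p = 0.141) for the first without shCNKSR2_1 replicates 2 and 3. The count of 4 was 2 without shControl replicate 2, and the first count of 2 was 4 without shCNKSR2_1 replicate 1. Emb, a partner protein of lactate carriers, was at 47.2, 48.5 and 47.1 FPKM in controls, 61.0, 43.9 and 44.8 with shCNKSR2_1 and 28.9, 30.5 and 30.1 with shCNKSR2_2. It fell with the second hairpin by 0.66 (adjusted p = 0.000274), while with the first it did not pass (0.05, adjusted p = 0.723) and replicate 1 lay above the controls. Of 13 genes of nucleoside handling, 0 were higher and 4 lower with shCNKSR2_1 (30.8% lower, against 13.6% higher and 19.3% lower over all genes). With shCNKSR2_2 these were 2 and 5 (15.4% and 38.5%, against 20.0% and 28.2%). Among the lower was the thymidine kinase Tk1, which fell by 0.41 and 0.37 (adjusted p = 0.000347 and 0.000340 by limma). The count of 4 was 2 without any 1 control library or shCNKSR2_1 replicate 3. Upp1, a uridine phosphorylase, was at 5.10, 5.30 and 5.07 FPKM in controls, 3.09, 4.84 and 4.05 with shCNKSR2_1 and 9.14, 8.5 and 8.78 with shCNKSR2_2. It rose with the second hairpin by 0.67 (adjusted p = 0.000262) and differed between the hairpins by 0.99 (adjusted p = 0.000174), while its change of -0.32 with the first (adjusted p = 0.0299) was lost without any 1 control library or shCNKSR2_1 replicate 3 (adjusted p from 0.0565 to 0.0842) and under quantile normalization. Of 58 measured transporters, pumps and channels without an Slc symbol, 9 were higher and 13 lower with shCNKSR2_1 (15.5% and 22.4%, against 13.6% and 19.3% of all genes), and 18 and 16 with shCNKSR2_2 (31.0% and 27.6%, against 20.0% and 28.2%). The count of 9 was 5 without shCNKSR2_1 replicate 2. Atp1b1, a subunit of the sodium pump, was at 9.87, 10.2 and 9.31 FPKM in controls, 15.8, 15.8 and 16.3 with shCNKSR2_1 and 17.2, 17.3 and 16.6 with shCNKSR2_2, a rise of 0.65 and 0.74 (adjusted p = 9.47e-07 and 2.48e-07). The water channel Aqp1 fell by 0.68 and 0.29 (adjusted p = 2.28e-05 and 0.00354).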

How the data were processed

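Per the labels' protocols, RNA was extracted with the Qiagen miRNeasy kit and made into TruSeq Stranded mRNA libraries. The deposited values are FPKM, with a column for each library. STAR (written there as 25.1b), Cufflinks 2.2.1 and build mm9 were used, per the submitters' processing notes, while the annotation and the use of strand in counting are not given in the sources used here. Values were taken to log2(FPKM + 1), a scale that understates changes near 1 FPKM. All 9 libraries were fitted in limma 3.58.1 under R 4.3.3 (lmFit, eBayes with trend=TRUE) with 3 group means and 6 residual degrees of freedom. Two-sided p-values were adjusted by Benjamini-Hochberg over 10340 genes per contrast, and calls were made at 0.05. The SE is the moderated one, and SD is over FPKM. A minimum mean of 1 FPKM removed 0 genes. The fit was tested on simulated data.

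The members, substrate classes and lists were chosen with earlier results of these data known. Named were a set of well-known members, the 10 farthest up and down with both hairpins by the smaller change, the 5 called farthest up and down in each contrast, up to 4 called members of each class by mean absolute change, the most abundant of each class, and up to 3 called genes of each other list. A gene chosen by this rule is not reported here. The markers were counted only. Promoter windows came from RefSeq (GRCm38.p6), matched by symbol (1 by synonym), and the promoters shown and the subfamilies counted were picked after values were seen. Alternatives were pseudocount 0.1, a minimum mean of 5 FPKM, no minimum, median-ratio rescaling, quantile normalization, no variance trend, fits on only the groups compared, a replicate block, and leaving out each library. Subtracting a loess curve fitted to transcript GC content and leaving out shCNKSR2_1 replicates 2 and 3 together were added after the data were seen.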

Additional observations from a re-analysis of the deposited data

Results flagged for a closer look

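Of all 10340 genes, 45 were called in opposite directions by the hairpins. Slc35a3, a UDP-N-acetylglucosamine transporter of the Golgi, was the 1 such member of the 160, and the difference itself was tested. It was at 13.4, 13.0 and 12.6 FPKM in controls, 11.3, 12.2 and 11.4 with shCNKSR2_1 and 13.9, 15.6 and 15.1 with shCNKSR2_2, so the 3 groups did not overlap. The log2 fold changes were -0.15 (adjusted p = 0.0348) and 0.18 (adjusted p = 0.00890), and shCNKSR2_2 minus shCNKSR2_1 was 0.33 (SE 0.05, adjusted p = 0.00112 by limma). The lower level with shCNKSR2_1 lost its call without shControl replicate 1 or 2, shCNKSR2_1 replicate 1 or 3 or shCNKSR2_2 replicate 3 (adjusted p from 0.0518 to 0.119), and under median-ratio rescaling and quantile normalization (adjusted p = 0.0765 and 0.0976). The difference between the hairpins kept its call under all 19 alternatives.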

How the results depend on the processing

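Of 112 calls over 54 named Slc genes, 0 changed direction under the 19 alternatives, 72 held under all that covered the gene and 40 were lost under at least 1. The fit with no minimum repeats the main fit, since the minimum removed 0 genes, so it could lose no call. Genes averaging under 5 FPKM had 18 alternatives. The balance of higher and lower members did turn with the scaling, from 44 and 45 with shCNKSR2_2 to 58 and 34 under quantile normalization. Leaving out 1 library at a time, the members called with shCNKSR2_1 ranged from 46 to 75 (19 to 42 higher, 25 to 33 lower), with shCNKSR2_2 from 72 to 93 (37 to 47 higher, 33 to 46 lower) and between the hairpins from 18 to 36 (11 to 21 higher, 7 to 15 lower). Called with both hairpins were 18 to 35 higher and 20 to 28 lower. Without shCNKSR2_1 replicates 2 and 3 together, 36 were called with that hairpin, 14 higher and 22 lower, 49 differed between the hairpins, 33 higher and 16 lower, and 13 higher and 17 lower were shared, with fewer samples in the fit. Over all groups the replicate numbers do not pair the samples, since same-numbered libraries correlated from -0.32 to 0.43 in their deviations. Those of shControl and shCNKSR2_1 alone correlated at 0.12, 0.18 and 0.43, although shControl replicate 3 correlated at 0.45 with replicate 1 of shCNKSR2_2. With a replicate block 60, 83 and 34 members were called in the 3 comparisons, with 25 higher and 26 lower in both hairpins, and 8 calls of named genes were lost. Counts by class moved by over 1.5 times, or to or from 0, in 190 cases, and by less or not at all in 1064. The latter include the 66 with no minimum, which could not move. Depth is unknown, so counting error cannot be given, and genes near 1 FPKM carry compressed changes.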
